A study of Mus musculus with 6 samples.

Results

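Proteoglycans of the extracellular matrix were followed in mouse mammary epithelial cells at 2 stages of life. The members are 10 genes chosen by name: the small leucine-rich proteoglycans Dcn, Bgn, Aspn, Lum, Fmod, Prelp and Ogn, the hyaluronan-binding Vcan, and the basement membrane proteins Hspg2 and Agrn. A probe was taken as a member when its accession belonged to 1 of these genes, which gave 13 of the 55681 probes on the array and covered 9 of the 10 genes. No probe was matched to Prelp, and Prelp was not analysed here. The rule names genes and uses no measured value, but the members were chosen with earlier results of these data known.

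The measurements are 1-color Agilent arrays of total RNA, in which Cy3-labelled cRNA binds to oligonucleotide probes and each spot is read by its fluorescence. All samples came from female C57Bl6J mice, and each population was sampled in 3 biological replicates with 1 array each. The fetal cells were CD31-CD45-Ter119-EpCAM++CD49f+ cells of E18.5 mammary rudiments, and the adult basal cells, of phenotype CD31-CD45-Ter119-BP-1-EpCAM+CD49f+, came from glands of adults aged 8 to 12 weeks. The study compared the E18.5 cells with what it took to be their nearest adult relatives. The gates removed endothelial (CD31) and blood (CD45, Ter119) cells in both, and stromal cells that carry BP-1 in the adult sort alone. The tissue was digested with collagenase and hyaluronidase, briefly for fetal glands and overnight for adult glands, so developmental stage, gate and length of digestion cannot be told apart in this comparison. The number of animals behind each sample was not given in the sources used here. The cells on the adult arrays had the markers of their label. Of the 10 basal mammary markers 8 were called higher in adult basal cells, where 5.20% of all genes tested were. Acta2 (smooth muscle actin of the contractile basal cell) read 18.47 ± 0.08 (SD, n = 3) on the log2 scale against 14.41 ± 0.29 (SD, n = 3) in fetal cells. In the fetal cells 4 of 9 tested luminal markers were called higher, where 6.02% of all genes tested were. Among the 4 was Epcam, which encodes the antigen gated brighter in the fetal sort, so its direction is not independent of the gate. Elf5, a transcription factor of the luminal lineage, was also among the 4, at 12.65 ± 0.15 against 5.10 ± 0.28 (SD, n = 3 each). Krt19 and the tested Esr1 probe, of the same list, were lower in fetal cells and not called. Krt8, Krt18, Gata3 and Cd14 were not called either.

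A proteoglycan is a core protein that carries glycosaminoglycan chains, long sugar polymers that are sulphated in patterns set by a series of enzymes. Decorin (Dcn), biglycan (Bgn), asporin (Aspn), lumican (Lum), fibromodulin (Fmod) and osteoglycin (Ogn) have a short core built of leucine-rich repeats. Most of them bind collagen fibrils and limit their thickness, and decorin also binds growth factors such as TGF-beta. Versican (Vcan) is a large chondroitin sulphate proteoglycan that links to hyaluronan and is typical of embryonic and remodelling matrix. Perlecan (Hspg2) and agrin (Agrn) carry heparan sulphate chains in basement membranes, the sheet on which mammary basal cells rest. In the mammary gland the fibrillar proteoglycans are usually thought of as products of the stroma, whereas epithelial cells contribute to the basement membrane.

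Levels are given as log2 of the quantile normalized signal, a fold change is the fetal minus the adult basal mean on that scale, and a negative value is higher in adult basal cells. A probe was called where limma's Holm-adjusted p did not exceed 0.05 and the difference was at least 2-fold. A gene with several probes is represented by its brightest, numbered 1 here, and all probes of the proteoglycan members are given. Levels of different probes are not read as differences in expression, because probes differ in how brightly they report. Brightest refers to the mean log2 signal over all arrays, and a summed signal is weighted toward bright probes.

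Among the 10 genes, Dcn and Hspg2 were called higher in adult basal cells and no gene was called higher in fetal cells by its brightest probe, although 2 of the 3 Vcan probes were. These counts are out of 8 genes that passed the low-signal filter. Over the 15725 genes tested, 5.20% were called higher in adult basal and 6.02% higher in fetal cells. By probe, 3 of the 12 tested were called higher in adult basal and 2 higher in fetal cells, against 5.18% and 5.92% of all 20448 probes tested. With the less strict Benjamini-Hochberg adjustment and the same 2-fold limit, 5 genes were called higher in adult basal cells (13.9% of all genes tested) and 0 higher in fetal cells (15.8%). At an unadjusted p under 0.05, whatever the size, 6 genes were higher in adult basal cells (32.0% of all genes tested) and 1, Vcan, in fetal cells (31.8%). The 3 fetal and 3 adult arrays did not overlap for 6 genes higher in adult basal cells and 1 higher in fetal cells, whereas 35.0% and 33.4% of all genes showed such a separation. The median fold change over all genes tested was -0.04.

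**Figure D1:**
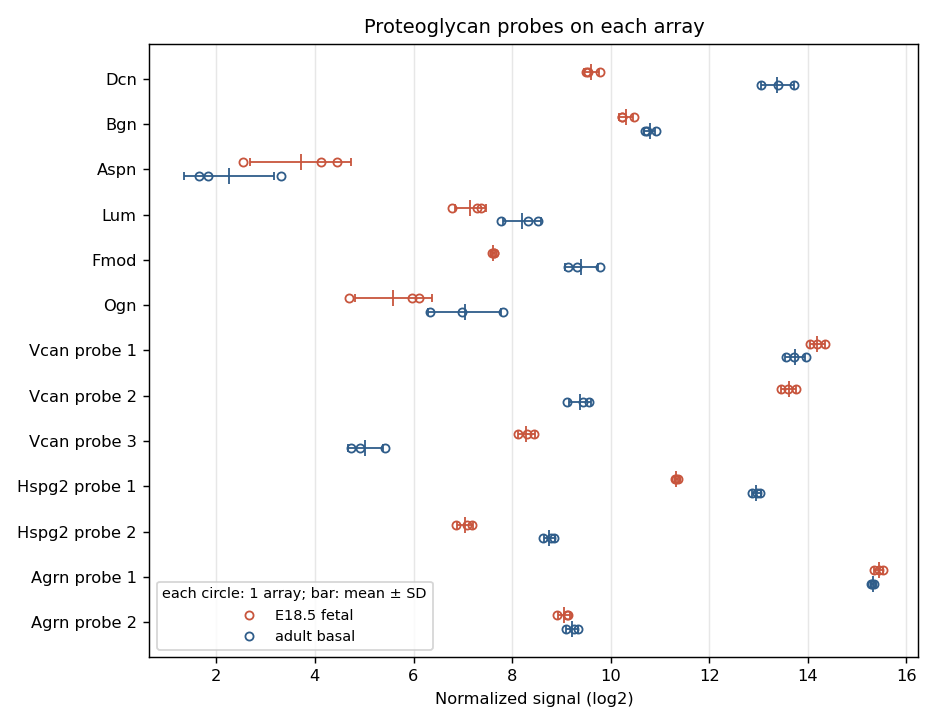
Normalized log2 signal of each of the 13 proteoglycan probes on the 3 E18.5 fetal and 3 adult basal arrays (1 circle per array, bar: mean ± SD). Dcn lies between 9.50 and 9.78 on fetal and between 13.04 and 13.72 on adult basal arrays, Vcan probe 2 shows the opposite order, and Agrn overlaps.

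The promoters of the members with probes called in opposite directions, Vcan and Hspg2, are shown as the stretch of 250 bases before the annotated start, in the direction of transcription (RefSeq, GRCm38.p6). Of the 10 members, 8 had an entry in the table used, and Dcn and Lum had none. Capitals mark matches to the GC box GGGCGG on either strand, the letters read by Sp-type zinc finger factors. The Vcan window, on the minus strand at chr13:89742513-89742762, held 2 matches and was 62.4% G or C. The Hspg2 window, on the plus strand at chr4:137468553-137468802, held 5 matches and was 70.0% G or C.
Vcan: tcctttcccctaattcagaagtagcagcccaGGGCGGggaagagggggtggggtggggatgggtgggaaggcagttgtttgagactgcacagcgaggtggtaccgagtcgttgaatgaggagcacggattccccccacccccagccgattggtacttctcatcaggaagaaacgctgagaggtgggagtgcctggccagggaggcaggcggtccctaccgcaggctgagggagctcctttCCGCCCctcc
Hspg2: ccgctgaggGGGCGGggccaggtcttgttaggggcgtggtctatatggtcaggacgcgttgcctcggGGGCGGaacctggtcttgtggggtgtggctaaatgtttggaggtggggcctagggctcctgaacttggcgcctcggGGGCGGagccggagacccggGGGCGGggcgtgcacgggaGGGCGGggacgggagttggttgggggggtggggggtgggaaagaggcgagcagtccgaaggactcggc
A GC box was present in 32.7% of 32851 promoter windows of the same length. Neither window held TATAAA or the AP-1 letters TGANTCA, found on either strand in 12.4% and 6.75% of all windows. The median window was 52.4% G or C. These matches describe the letters only.

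Of the 7 small leucine-rich proteoglycans 5 were tested, and of these Dcn alone was called, higher in adult basal cells. Fmod, Lum and Ogn were called in the same direction with Benjamini-Hochberg adjustment, and Bgn was not called with either adjustment. For each of the 5 genes the 3 adult arrays lay above the 3 fetal arrays, as they did for 35.0% of all genes tested, and the median fold change was -1.45. That median is the value of Ogn, which passed the filter (limit 5.95) only through its adult mean of 7.04, against 5.59 in fetal cells. The direction of a gene that enters this way follows from the filter. Aspn, which had a probe but was not tested, had the higher mean in fetal cells.

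Dcn, which coats collagen fibrils and binds TGF-beta, read 9.50, 9.54 and 9.78 on fetal arrays 1, 2 and 3, and 13.04, 13.39 and 13.72 on adult basal arrays 1, 2 and 3. All 3 adult arrays were far above all 3 fetal arrays, which themselves were well above background. The fold change was -3.78 (SE 0.183), that is 13.7-fold higher in adult basal cells, with a Holm-adjusted p of 0.00231. The arrays were spread over 2 slides, each with arrays of both populations, and the difference was -3.88 within slide 1 and -3.73 within slide 2. The call was lost in 1 of 18 alternatives, when fetal replicate 1 was left out (fold change -3.74, Holm-adjusted p 0.0527).

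Fmod, a collagen-binding relative of lumican, had nearly equal fetal values of 7.64, 7.59 and 7.64 and adult values of 9.13, 9.31 and 9.78. The 3 adult arrays were all higher, by a fold change of -1.79 (SE 0.169). The Holm-adjusted p was 0.215, so the gene was not called, whereas the Benjamini-Hochberg p was 7.6e-05. With a variance trend and robust estimation Fmod was called (Holm-adjusted p 0.034). Within slides the difference was -1.82 and -1.70.

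Lum, which regulates fibril spacing, read 6.79, 7.30 and 7.37 on the fetal and 7.77, 8.33 and 8.52 on the adult arrays. The groups did not overlap, but the highest fetal and lowest adult array lay close together. A fold change of -1.05 (SE 0.234) resulted, with a Holm-adjusted p of 1 and a Benjamini-Hochberg p of 0.00582.

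Ogn, first known from bone, had the widest spread among the tested members, with fetal values of 4.69, 5.97 and 6.11 and adult values of 6.33, 6.98 and 7.81. Fetal array 1 was the low one and adult array 3 the high one. The fold change was -1.45 (SE 0.473), with a Holm-adjusted p of 1 and a Benjamini-Hochberg p of 0.0309. Within slides it was -2.38 and -0.94.

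Bgn, the closest relative of decorin, differed little, at 10.47, 10.23 and 10.22 on fetal and 10.75, 10.92 and 10.71 on adult arrays. The adult arrays were again all higher. The fold change of -0.48 (SE 0.119) was below the 2-fold limit, with a Benjamini-Hochberg p of 0.00933 and a Holm-adjusted p of 1.

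Aspn, a decorin relative that binds collagen and TGF-beta, fell under the low-signal filter and was not tested. Its values were 2.55, 4.45 and 4.13 on fetal and 3.30, 1.64 and 1.84 on adult arrays, and only fetal array 2 was well above background. The 2 groups overlapped, with the higher mean in fetal cells (3.71 against 2.26).

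Several of these genes stand side by side in the genome. In RefSeq gene order Dcn is followed by Lum, Kera and Epyc, relatives that coat collagen in cornea and cartilage. Only Dcn and Lum of this run were well above background on all 6 arrays: Kera was well above background on 1 fetal and 1 adult array and Epyc on none. Aspn and Ogn lie in a run with Ecm2 and Omd, of which Omd was above background on no array, and Ecm2 was low (5.44 ± 0.19 in fetal and 5.78 ± 0.28 in adult basal cells, SD, n = 3 each) and not tested. Fmod lies next to Prelp, and beyond it Optc, which read 4.75 ± 1.01 in fetal and 6.95 ± 0.59 in adult basal cells (SD, n = 3 each) with a Holm-adjusted p of 1. Of the genes in these 3 runs that were tested, Dcn was the only 1 called.

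Vcan gave different answers by probe. The brightest probe differed little between the populations, whereas the other 2 were higher in fetal cells by more than 3 log2 units. Probes 1 and 3 name the same RefSeq transcript and probe 2 names another, so the difference between probes does not follow the transcript named. Which splice forms of versican the probes read was not examined. The labels name a low-input amplification kit and the methods a whole-transcript version of it, and such kits can differ in which part of a transcript they copy. The part of labelling in the difference between probes was not tested.

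Vcan probe 1 (A_55_P1960208) read 14.34, 14.04 and 14.19 on fetal and 13.72, 13.96 and 13.55 on adult arrays. The fetal arrays were all higher, with fetal array 2 only just above adult array 2. The fold change was 0.45 (SE 0.142), with a Holm-adjusted p of 1 and a Benjamini-Hochberg p of 0.0277.

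Vcan probe 2 (A_55_P1960202) read 13.76, 13.60 and 13.46 on fetal and 9.56, 9.45 and 9.12 on adult arrays. The 2 groups were widely separated, and all 6 arrays were well above background. The fold change was 4.23 (SE 0.147), 18.8-fold higher in fetal cells, with a Holm-adjusted p of 0.000228. It was called under all 17 alternatives run for it, with fold changes between 4.10 and 4.37, and was 4.42 and 4.08 within the 2 slides.

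Vcan probe 3 (A_52_P1044655) read 8.31, 8.45 and 8.11 on fetal and 5.41, 4.92 and 4.73 on adult arrays. Again every fetal array was above every adult array. The fold change was 3.27 (SE 0.190), 9.64-fold, with a Holm-adjusted p of 0.0082. The call was lost in 4 of 17 alternatives: without the low-signal filter (Holm-adjusted p 0.0804), and without fetal replicate 1 (0.165), 2 (0.115) or 3 (0.0705).

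The fold change of probe 2 exceeded that of probe 1 by 3.79, and that of probe 3 exceeded that of probe 1 by 2.82. Probe 3 against probe 2 gave a difference of -0.96. In each case the 6 per-array differences between probes separated fully by population (2-sided exact permutation p of 0.1, the smallest that 3 against 3 arrays allow). When the probes of a gene were averaged before the fit, Vcan was called with a fold change of 2.65 (Holm-adjusted p 0.00311). The statement for the gene as a whole therefore depends on the probe.

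**Figure D2:**
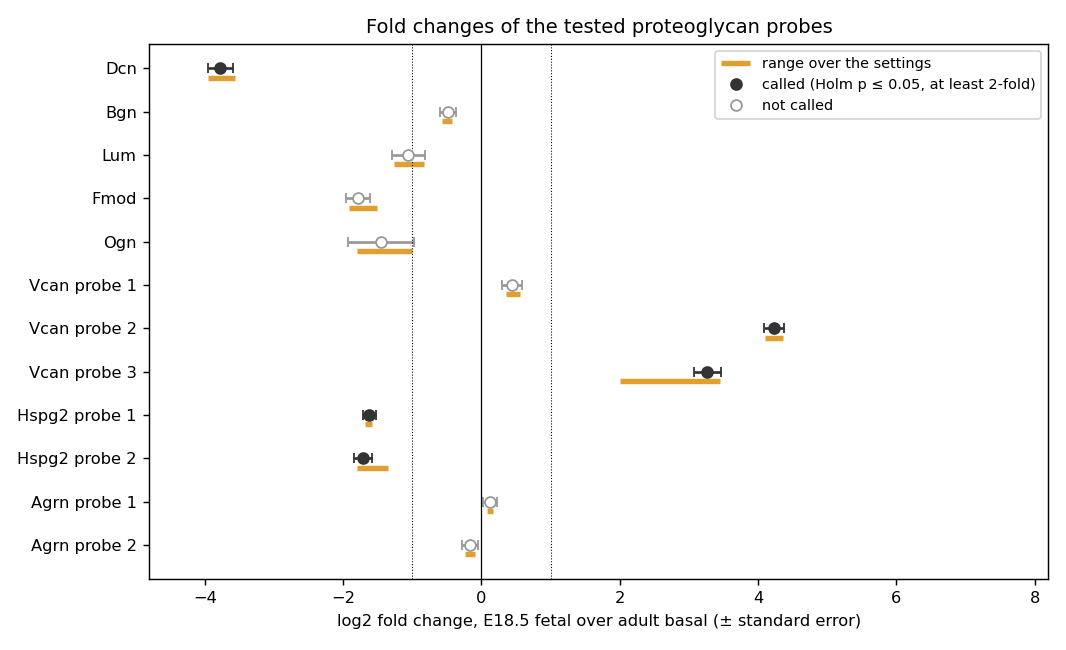
Log2 fold change, E18.5 fetal over adult basal, of the 12 tested proteoglycan probes (points, ± standard error), with the range over the processing alternatives for that probe as a bar and dotted lines at a 2-fold difference. Dcn and both Hspg2 probes are called to the left, Vcan probes 2 and 3 to the right, and Vcan probe 1 lies at 0.45.

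Of the heparan sulphate proteoglycans of the basement membrane, Hspg2 was 3.07-fold and 3.28-fold higher in adult basal cells by its 2 probes, and Agrn was not called by either of its own. Hspg2 probe 1 (A_52_P422859) read 11.37, 11.31 and 11.32 on fetal and 12.86, 12.98 and 13.03 on adult arrays. Both groups were tight and far apart, by a fold change of -1.62 (SE 0.0974) with a Holm-adjusted p of 0.0102, and within slides it was -1.57 and -1.66. Probe 2 (A_55_P1959648) read 7.19, 6.86 and 7.08 on fetal and 8.85, 8.62 and 8.80 on adult arrays. Its groups were separated as well, with a fold change of -1.71 (SE 0.125) and a Holm-adjusted p of 0.0387. The fold changes of the 2 probes differed by -0.09 (2-sided exact permutation p of 0.5).

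The size of the Hspg2 difference stayed between -1.68 and -1.58 for probe 1 and between -1.80 and -1.35 for probe 2, but the calls depended on single arrays and on the fit. The call of probe 1 was lost in 8 of 18 alternatives and that of probe 2 in 11 of 17. For probe 1 the Holm-adjusted p was 0.182, 0.198 and 0.172 without fetal replicate 1, 2 or 3, 0.0559 and 0.0994 without adult basal replicate 1 or 3, 0.0613 without the low-signal filter, 0.234 with replicate number as a block and 0.0798 with slide as a block. For probe 2 it lay between 0.0765 and 0.445 when any of the 6 arrays was left out. It was 0.246 without the low-signal filter, 0.0634 with the filter on signal over background, 0.0952 with unmatched probes included, and 0.136 and 0.0889 with replicate number or slide as a block.

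Agrn, which clusters receptors at the nerve-muscle synapse and anchors laminin elsewhere, read 15.45, 15.53 and 15.33 on fetal and 15.34, 15.29 and 15.30 on adult arrays with probe 1 (A_55_P2009121). The groups overlapped, with a fold change of 0.13 (SE 0.0988) and a Benjamini-Hochberg p of 0.307, and with the mean of its probes the sign turned (-0.02). Probe 2 (A_55_P2009127) read 9.12, 8.90 and 9.13 on fetal and 9.33, 9.09 and 9.25 on adult arrays, a fold change of -0.17 (SE 0.117) with overlapping groups.

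The other genes of proteoglycan biology were read from 4 lists of 147 genes in all, of which 145 had a probe and 116 passed the low-signal filter. By the brightest probe 8 were called higher in fetal and 13 higher in adult basal cells, where 6.02% and 5.20% of all genes tested were. With Benjamini-Hochberg adjustment the counts were 17 and 28, against 15.8% and 13.9% of all genes tested. Of the 21 called genes 7 kept the call under every alternative, namely Gpc3, Ptprz1, Hs3st3a1, Sulf1, Chpf2, Hpse and Htra1.

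**Figure D3:**
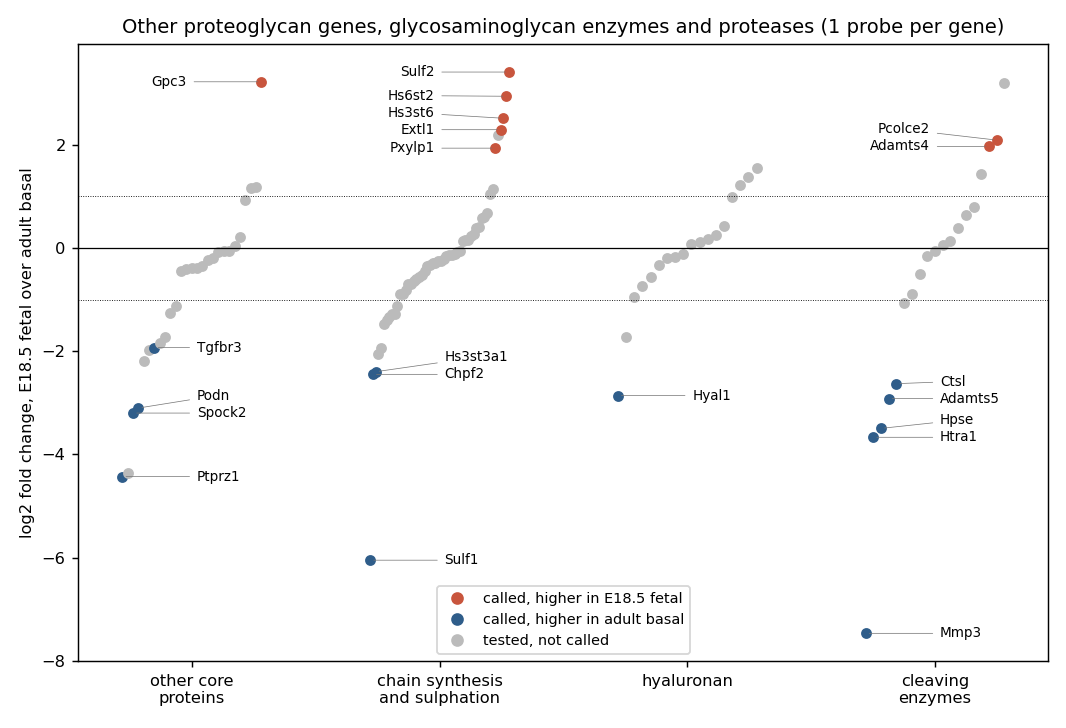
Log2 fold change, E18.5 fetal over adult basal, of every tested gene of the 4 lists (1 probe per gene, sorted within each list), with called genes colored and named and dotted lines at a 2-fold difference. Sulf1 at -6.05 and Sulf2 at 3.41 lie at opposite ends of the chain synthesis and sulphation list, and Mmp3 is drawn at its fitted value although its fetal signal was not well above background.

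The list of other proteoglycan core proteins held 36 genes, of which 27 were tested, with a median fold change of -0.40. Of these 1 was called higher in fetal and 4 higher in adult basal cells, against 6.02% and 5.20% of all genes tested. Gpc3, a glypican that is tethered to the membrane by a lipid anchor and restrains growth, read 12.43, 12.23 and 12.44 on fetal and 9.12, 9.33 and 9.01 on adult arrays. That is a clear separation, with a fold change of 3.22 (SE 0.124, Holm-adjusted p 0.000472). Ptprz1, a receptor tyrosine phosphatase that carries chondroitin sulphate, read 8.82, 9.002 and 8.46 on fetal and 13.07, 13.38 and 13.12 on adult arrays. It was higher in adult basal cells on every array, with a fold change of -4.43 (SE 0.165, Holm-adjusted p 0.000367) and -4.73 (SE 0.140) by its other probe. Spock2 (testican-2), Podn (podocan, a further leucine-rich repeat protein) and Tgfbr3 (betaglycan, a co-receptor for TGF-beta) were higher in adult basal cells with fold changes of -3.20 (SE 0.171), -3.10 (SE 0.194) and -1.93 (SE 0.108). Their Holm-adjusted p values were 0.00451, 0.0135 and 0.00617.

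The calls of Podn, Tgfbr3 and Spock2 depended on single arrays, and were lost in 7, 5 and 3 alternatives. For Podn the Holm-adjusted p was between 0.0984 and 0.229 without fetal replicate 1, 2 or 3 or adult basal replicate 1 or 3. For Tgfbr3 it was between 0.0765 and 0.113 without fetal replicate 1, 2 or 3 or adult basal replicate 1, and for Spock2 it was 0.0897 without fetal replicate 1 and 0.0568 without adult basal replicate 3.

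The syndecans and the remaining core proteins fixed for naming were not called. Sdc1, the main epithelial syndecan, read 11.15 ± 0.12 in fetal and 11.21 ± 0.27 in adult basal cells (SD, n = 3 each), with overlapping arrays. Sdc4, a syndecan of focal adhesions, read 11.69, 11.37 and 11.60 on fetal and 12.99, 12.34 and 13.10 on adult arrays. Its fold change of -1.25 (SE 0.210) separated the groups without passing the Holm adjustment (adjusted p of 1). Cspg4 (NG2) and Acan (aggrecan, the large proteoglycan of cartilage) had fold changes of -0.07 (SE 0.114) and -0.08 (SE 0.117), and their groups overlapped.

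The enzymes that build and sulphate glycosaminoglycan chains were 62 genes, of which 60 had a probe and 52 were tested. Their median fold change was -0.26. Of the tested genes 5 were called higher in fetal and 3 higher in adult basal cells, against 6.02% and 5.20% of all genes tested. The 2 extracellular sulphatases, which strip 6-O-sulphate groups from finished heparan sulphate chains, moved in opposite directions. Sulf1 read 6.02, 6.08 and 5.71 on fetal and 12.19, 11.90 and 11.87 on adult arrays. Its fold change was -6.05 (SE 0.144), 66.2-fold higher in adult basal cells, with a Holm-adjusted p of 1.5e-05. The other Sulf1 probe was also called, with a fold change of -2.73 (SE 0.144).

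Sulf2 read 11.50, 11.43 and 11.12 on fetal and 8.42, 7.93 and 7.49 on adult arrays. Every fetal array was higher, by a fold change of 3.41 (SE 0.234) with a Holm-adjusted p of 0.0258. Its call was lost in 7 alternatives, with a Holm-adjusted p of 0.389, 0.349 and 0.169 without fetal replicate 1, 2 or 3 and 0.140 without adult basal replicate 2.

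Hs6st2, which adds the 6-O-sulphates, read 10.90, 10.72 and 11.13 on fetal and 8.29, 7.74 and 7.92 on adult arrays, a fold change of 2.94 (SE 0.173, Holm-adjusted p 0.00909). Among the 3-O-sulphotransferases, which add the rarest sulphate group, Hs3st6 was higher in fetal cells and Hs3st3a1 in adult basal cells. Hs3st6 read 12.88, 13.01 and 13.48 on fetal and 10.61, 10.78 and 10.45 on adult arrays (fold change 2.51, SE 0.178, Holm-adjusted p 0.0317). Hs3st3a1 read 6.70, 6.79 and 6.90 on fetal and 9.25, 9.20 and 9.13 on adult arrays (fold change -2.40, SE 0.101, Holm-adjusted p 0.000899). Each of these 3 genes separated the populations completely, as did 33.4% (higher in fetal) and 35.0% (higher in adult basal) of all genes tested.

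Extl1, a glycosyltransferase of heparan sulphate elongation, and Pxylp1, which removes phosphate from the xylose that joins a chain to its core protein, were higher in fetal cells with fold changes of 2.29 (SE 0.140) and 1.93 (SE 0.110). The other Pxylp1 probe was dim (5.13 in fetal and 4.08 in adult basal cells) and not tested. Chpf2, a chondroitin polymerizing factor, was higher in adult basal cells by both its probes, with fold changes of -2.45 (SE 0.0994) and -1.95 (SE 0.0967). The Holm-adjusted p of Chpf2 probe 1 was 0.000672.

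Each call in this list that pointed to fetal cells depended on single arrays. Of 18 alternatives the call was lost in 5 for Hs6st2, 7 each for Sulf2, Extl1 and Pxylp1, and 11 for Hs3st6. Settings that keep all arrays also cost calls. Over the 4 lists the genes called higher in fetal cells fell from 8 to 3 with replicate number as a block. They fell to 4 with slide as a block and to 2 without the low-signal filter. The highest Holm-adjusted p with 1 array left out was 0.169 for Hs6st2 (fetal replicate 1), 0.373 for Hs3st6 (adult basal replicate 1), 0.187 for Extl1 (fetal replicate 2) and 0.1296 for Pxylp1 (fetal replicate 1). Their fold changes stayed between 2.81 and 3.09 for Hs6st2, 2.33 and 2.64 for Hs3st6, 2.20 and 2.40 for Extl1, and 1.86 and 1.99 for Pxylp1 when any array was left out.

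**Figure D4:**
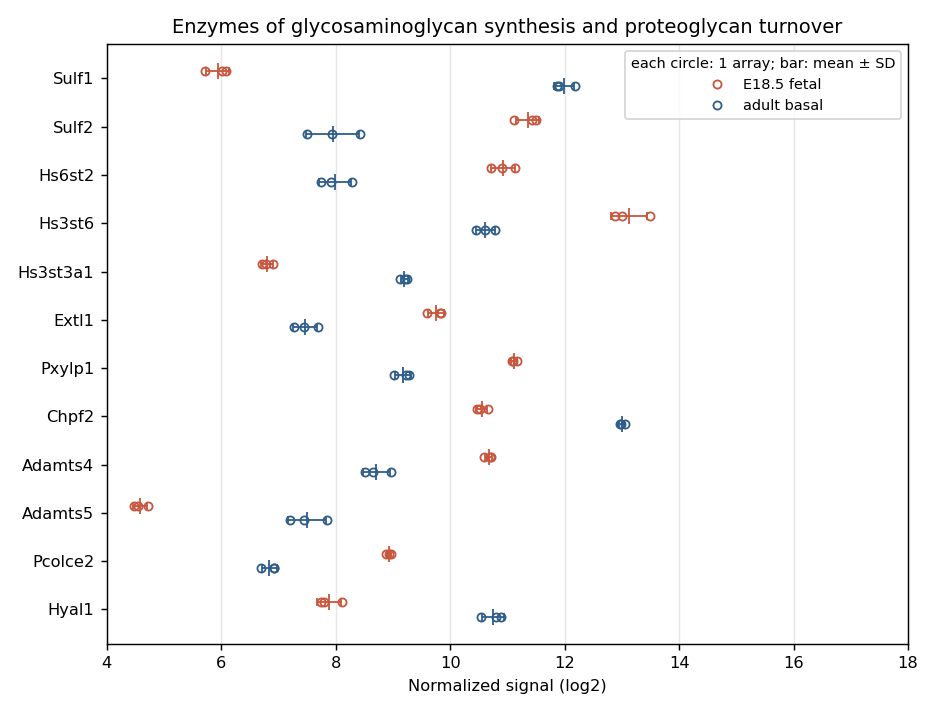
Normalized log2 signal of 12 called enzymes and regulators of glycosaminoglycan synthesis and proteoglycan turnover on the 3 E18.5 fetal and 3 adult basal arrays (1 circle per array, bar: mean ± SD). Sulf1 is high on the adult basal arrays (11.87 to 12.19) and Sulf2 on the fetal arrays (11.12 to 11.50).

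Hyaluronan, the sugar to which versican binds, is made at the cell membrane without a core protein. Of 25 genes for its synthesis, binding and turnover 18 were tested, with a median fold change of -0.02. With Holm adjustment 0 were called higher in fetal and 1 higher in adult basal cells, against 6.02% and 5.20% of all genes tested. The counts were 2 and 2 with Benjamini-Hochberg adjustment, against 15.8% and 13.9%. At an unadjusted p under 0.05 in limma they were 4 and 6, against 31.8% and 32.0%. Hyal1, a lysosomal hyaluronidase, read 7.79, 7.73 and 8.11 on fetal and 10.53, 10.89 and 10.80 on adult arrays. Its fold change was -2.86 (SE 0.149, Holm-adjusted p 0.00383), and the Holm-adjusted p rose to 0.0813 without fetal replicate 1 and 0.0563 without fetal replicate 2. Cd44, the main hyaluronan receptor, was not called. Its brightest probe had a fold change of -0.57 (SE 0.128) and its other 3 probes -0.63, 0.34 and 1.25, so that the sign depended on the probe.

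The list of enzymes that cleave core proteins or heparan sulphate, with some related proteins such as the protease inhibitor Timp3, held 24 genes, 19 of them tested. Their median fold change was -0.06. Of the tested genes 2 were called higher in fetal and 5 higher in adult basal cells, against 6.02% and 5.20% of all genes tested. Adamts4 and Adamts5 both cut aggrecan and versican, and they were called in opposite directions. Adamts4 read 10.70, 10.59 and 10.72 on fetal and 8.65, 8.50 and 8.96 on adult arrays (fold change 1.96, SE 0.138, Holm-adjusted p 0.0297). Adamts5 read 4.47, 4.72 and 4.54 on fetal and 7.85, 7.44 and 7.19 on adult arrays (fold change -2.92, SE 0.178, Holm-adjusted p 0.0113). The other Adamts5 probe had no fetal array well above background and was at least 14.5-fold higher in adult basal cells, a bound set by the lowest signal that counted as well above background on each array.

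Mmp3 (stromelysin-1), which degrades decorin and perlecan among other substrates, had no fetal array well above background and read 9.85, 9.86 and 10.37 on adult arrays. It was at least 76.2-fold higher in adult basal cells (Holm-adjusted p 0.00484). That bound belongs to the main processing, and over the alternatives the Mmp3 fold change ranged from -7.91 to -3.91. Htra1, a serine protease with decorin and biglycan among its substrates, read 11.35, 11.18 and 11.003 on fetal and 14.92, 15.08 and 14.54 on adult arrays (fold change -3.67, SE 0.167, Holm-adjusted p 0.00153). Hpse (heparanase), which cuts heparan sulphate chains, read 5.51, 4.94 and 5.17 on fetal and 8.70, 8.56 and 8.86 on adult arrays (fold change -3.50, SE 0.165, Holm-adjusted p 0.00193). For these probes of the 3 genes the adult arrays stood far above the fetal ones. The other Hpse probe had a smaller fold change of -1.62 and was not called (Holm-adjusted p 0.508).

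Ctsl, a lysosomal cysteine protease, was higher in adult basal cells (fold change -2.63, SE 0.128, Holm-adjusted p 0.00234). Pcolce2, which enhances the trimming of fibrillar procollagen, was higher in fetal cells (fold change 2.09, SE 0.108, Holm-adjusted p 0.00354). The highest Holm-adjusted p with 1 array left out was 0.477 for Adamts4 and 0.199 for Adamts5 (both fetal replicate 1), 0.0755 for Pcolce2 (fetal replicate 2), 0.0714 for Mmp3 (fetal replicate 3) and 0.0617 for Ctsl (fetal replicate 1). The call was lost in 9 of 18 alternatives for Adamts4 and 7 of 17 for Adamts5. For both, that is more than the settings that leave out an array, so settings that keep all arrays also lost the call. It was lost in 4 of 18 each for Pcolce2 and Mmp3 and 1 of 18 for Ctsl.

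Because fibrillar proteoglycans are known from fibroblasts, markers of other cell types were read on the same arrays. The arrays measure mixed RNA, so fewer cells of a type and less RNA per cell cannot be told apart. Of 20 fibroblast markers 17 were tested, with a median fold change of -0.97. The median gene, Fap, and Pdgfrb, Twist2, Prrx1 and Pi16 had fetal means under the filter limit of 5.95. These genes were tested only through their adult signal, so their direction follows from the filter and the median and counts lean the same way. With Holm adjustment 0 were called higher in fetal and 3 higher in adult basal cells, where 6.02% and 5.20% of all genes tested were. The counts were 1 and 8 with Benjamini-Hochberg adjustment, against 15.8% and 13.9% of all genes tested. At an unadjusted p under 0.05 in limma they were 2 and 14, against 31.8% and 32.0%. The fibroblast markers called were Pdgfrb, Pi16 and Prrx1. Pdgfrb, the PDGF receptor of fibroblasts and pericytes, read 4.92, 4.76 and 5.23 on fetal and 9.04, 9.39 and 9.51 on adult arrays (fold change -4.34, SE 0.172, Holm-adjusted p 0.000558). Pi16 read 5.75 on each fetal array and 8.38, 8.66 and 9.15 on adult arrays (fold change -2.98, SE 0.190, Holm-adjusted p 0.0156). Prrx1, a mesenchymal transcription factor, had no fetal array well above background and was at least 74.8-fold higher in adult basal cells, where it read 9.41, 10.48 and 10.11 (Holm-adjusted p 0.0199). That bound belongs to the main processing, and over the alternatives the fold change of this probe ranged from -7.77 to -3.995. The other Prrx1 probe was called as well, at least 18.1-fold higher in adult basal cells.

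The summed signal of the 20 fibroblast genes was 13.16, 13.14 and 13.45 on fetal and 14.04, 14.21 and 14.59 on adult arrays, on the log2 scale. Every adult array was higher than every fetal array, and adult array 3, on which Dcn, Lum, Fmod and Ogn were highest, was the highest here too, whereas Bgn was lowest on it among the adult arrays. The brightest of the genes, the collagen gene Col1a2, read 11.35, 11.24 and 11.69 on fetal and 12.05, 12.03 and 12.89 on adult arrays (fold change -0.90, not called). Pdgfra, a defining fibroblast receptor, had a fold change of -0.37 and was not called. For Twist1, Prrx1, Dpt and Tcf21 no fetal array, and for each of them at least 1 adult array, was well above background. Both sorts took EpCAM-positive cells, and the study places the stromal cells of the fetal gland in its EpCAM-negative fraction. The purity of the sorted samples was not measured here. The part of fibroblast RNA in the Dcn difference was not tested. The call of Prrx1 was lost in 8 alternatives and that of Pi16 in 7, with Holm-adjusted p values of up to 0.255 without adult basal replicate 3 for Prrx1 and 0.273 without fetal replicate 1 for Pi16.

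**Figure D5:**
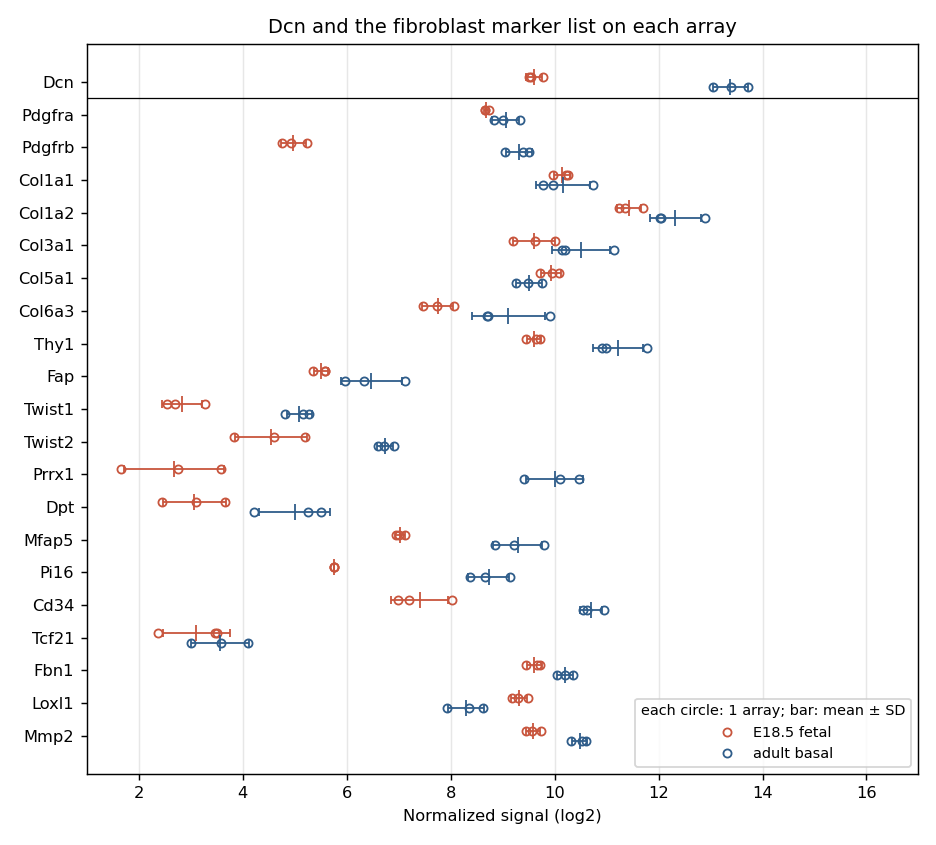
Normalized log2 signal of Dcn and of the 20 fibroblast markers (brightest probe of each) on the 3 E18.5 fetal and 3 adult basal arrays (1 circle per array, bar: mean ± SD). Pdgfrb, Prrx1 and Pi16 are separated in the direction of Dcn, whereas Col1a1 overlaps between the populations and Loxl1 and Col5a1 have the higher mean in fetal cells.

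Markers of pericytes, endothelium, leukocytes and fat were read in the same way. Of 6 tested pericyte markers Pdgfrb was called higher in adult basal and Notch3 higher in fetal cells (fold change 4.70, SE 0.169), so that the list's summed signal was 13.18, 13.06 and 13.02 on fetal and 11.54, 11.75 and 11.47 on adult arrays. None of 7 endothelial, 8 leukocyte or 7 adipocyte markers tested was called by limma with Holm adjustment. With Benjamini-Hochberg adjustment 4 endothelial, 2 leukocyte and 0 adipocyte markers were called, all higher in adult basal cells. The pericyte list then had 2 higher in adult basal cells, Pdgfrb and Rgs5 (Benjamini-Hochberg p 5.3e-05), and 1, Notch3, higher in fetal cells. Of all genes tested 13.9% and 15.8% were so called. At an unadjusted p under 0.05 the pericyte, endothelial, leukocyte and adipocyte counts were 4, 5, 2 and 3 in either direction. The shares of all genes tested were 32.0% higher in adult basal and 31.8% higher in fetal cells. Pecam1, the CD31 antigen used in the sort, had a fold change of -0.14, and Ptprc, the CD45 antigen, of -0.31. By mean signal over all arrays the brightest genes were Higd1b (-0.29) for pericytes, Kdr (-0.04) for endothelium, Itgam (0.24) for leukocytes and Fabp4 (-1.21) for fat. The sign of Kdr turned in 2 of the settings that leave out 1 array. The fold changes of Rgs5 and Cdh5 were -2.22 and -2.70. Rgs5, Cdh5 and Emcn passed the filter (limit 5.95) only through their adult signal, with fetal means of 4.78, 4.83 and 4.19. Without Higd1b the pericyte sum was 12.96, 12.82 and 12.75 on fetal and 10.27, 10.56 and 10.55 on adult arrays. Notch3 alone read 12.88, 12.74 and 12.66 on fetal arrays. The other Kdr probe had a fold change of -0.66 and the other Itgam probes of 0.15 and -0.15, none of them called. The summed signal was 13.80, 13.66 and 13.87 on fetal and 13.79, 13.86 and 13.64 on adult arrays for the endothelial list, and 15.09, 14.83 and 14.70 against 14.60, 15.06 and 14.77 for the leukocyte list, so both sums overlapped between the populations. Without Kdr the endothelial sum was 11.34, 11.44 and 11.60 on fetal and 11.18, 11.08 and 11.38 on adult arrays. Egfl7 made up much of that sum, at 10.92, 11.02 and 11.17 on fetal and 10.02, 9.81 and 10.29 on adult arrays. Its fold change was 0.99, higher in fetal cells and not called. The median fold change was -1.40 for the tested endothelial genes, -0.31 for pericyte, -0.11 for leukocyte and 0.02 for fat markers, and the 4 endothelial genes called with Benjamini-Hochberg adjustment were Esam (-3.77), Cdh5, Emcn (-1.79) and Cldn5 (-1.40). The 2 such leukocyte genes were Tyrobp (-2.80) and Lyz2 (-1.76). Adipoq, made by fat cells, read 5.62, 3.99 and 8.17 on fetal arrays and had no adult array well above background. Fetal array 3 was also the highest fetal array for Fabp4 (8.43, 8.67 and 10.43) and Cfd (6.44, 4.42 and 9.19), both products of fat cells, and for the other Cidec probe (5.06, 2.35 and 7.23), but not for the brightest Cidec probe (6.92, 6.54 and 6.69). The summed signal of the fat list was 10.64, 10.46 and 11.78 on fetal and 11.27, 11.18 and 11.44 on adult arrays, so fetal array 3 stood apart from the other fetal arrays for the list. Dcn was also highest on fetal array 3 among the fetal arrays (9.78, against 9.50 and 9.54). Without that array the Dcn fold change was -3.85 (Holm-adjusted p 0.0248).

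Aggrecan is the large proteoglycan of cartilage. Of the 7 tested cartilage and bone markers 2 were called higher in fetal cells, where 6.02% of all genes tested were. Col2a1 read 11.53, 11.48 and 11.65 on fetal and 6.11, 7.04 and 6.06 on adult arrays (fold change 5.15, SE 0.257, Holm-adjusted p 0.00286, and 0.0643 without fetal replicate 1). Col9a1 read 12.87, 12.94 and 12.65 on fetal and 6.73, 7.34 and 6.40 on adult arrays (fold change 5.99, SE 0.233, Holm-adjusted p 0.000502). The other Col9a1 probe read 8.002 in fetal and 8.09 in adult basal cells (fold change -0.08, overlapping arrays), and with the mean of both probes the fold change was 2.96. The Col9a1 difference therefore depends on the probe. Acan, of the same list, differed by -0.08, Sox9 by 0.57, and Matn1 was well above background on 1 fetal array and no adult array. The fetal sort took EpCAM++ cells, and the purity of the sorted samples was not measured here. Whether cartilage-type RNA bears on the Vcan difference was not tested.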

How the data were processed

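Agilent SurePrint G3 Mouse GE arrays were hybridized with RNA of 6 samples, 3 per population, 1 sample per array. The deposited spot intensity is the processed signal of Agilent Feature Extraction 11.0.1.1, background-subtracted by the authors and linear. The authors also deposited a table of quantile normalized log2 values, used here as an alternative. The labels and the methods name different labelling kits, and which was used is not settled here.

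Here control and outlier spots (104 to 326 per array) were left out, log2 signals of spots of a probe averaged, and the arrays quantile normalized. Probe accessions were matched, without versions, to RefSeq genes of GRCm38.p6: 27235 of 55681 probes matched 20660 genes. A k-means filter (3 clusters, 100 starts, seed 1) dropped probes of the lowest cluster in fetal and adult basal means alike, and 20448 were tested. A probe with the mean of 1 population under the filter limit (5.95 on the log2 scale) was therefore tested only where the other population was higher. Among the members this applied to Ogn and Vcan probe 3. limma 3.58.1 (R 4.3.3; lmFit, eBayes) gave 2-sided tests with Holm adjustment over all of them, after the study's methods. Tables were made with Python 3.11.15, pandas 2.3.3, numpy 2.4.6 and scipy 1.17.1, and plots with matplotlib 3.10.9. Where no array of a population was well above background, the fold is a bound set by the lowest signal that was.

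The members and lists were chosen with earlier results of these data known. Named were all members, the called genes of each pathway list (up to 6 per direction), Sdc1, Sdc4, Cd44, Cspg4 and Acan, of each marker list the brightest, the called and the first 2 genes, and the 5 genes nearest to Dcn; other genes named (such as Optc, Ecm2, Kera, Epyc, Omd, Col1a1, Col5a1, Loxl1, Twist1, Dpt, Tcf21, Matn1, Cfd, Cidec, Timp3, Esam, Emcn, Cldn5, Tyrobp, Lyz2, Trp63, Krt19, Gata3, Cd14 and Esr1) were chosen after their values were seen.

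The number of arrays limits the precision: the median SD of a tested probe was 0.12 in fetal and 0.18 in adult basal cells. No spot was saturated, and the share of probes well above background ran from 76.4% to 83.3% by array. Tested on simulated data with 20440 probes, the Holm-adjusted fit recovered 28 of 100 probes changed by 1.5 log2 units and 79 of 100 changed by 3, and called 0 unchanged probes (with Benjamini-Hochberg 88, 95 and 6). The results were recomputed with normalization to the 75th percentile, with the deposited log2 values, with normexp background correction (offset 50, median spot and local background intensity), after adding 16 before log2, with no filter or a filter on signal over background, with unmatched probes included, with Benjamini-Hochberg adjustment, with a variance trend and robust estimation, without each array, with replicate number or slide as a block, and with gene means over probes.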

Additional observations from a re-analysis of the deposited data

How the results depend on the processing

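The directions of Dcn, Fmod, Lum, Ogn, Bgn, Hspg2 and Vcan held under every alternative run for them; Ogn fell below the filter in 1, and counts over the table were not formed for the mean of a gene's probes. Over the whole array 2270 probes were called (1210 higher in fetal, 1060 in adult basal cells). Without the low-signal filter 1182 were called (619 and 563), 1 member probe in each direction, 1 member gene higher in adult basal cells and 2 list genes higher in fetal cells. With Benjamini-Hochberg adjustment 6133 were called (3267 and 2866), 6 member probes and 5 member genes higher in adult basal cells, and 17 and 28 list genes. A variance trend with robust estimation gave 1591 probes, 4 member probes and 3 member genes (Dcn, Hspg2 and Fmod) higher in adult basal cells, and all probes with or without a gene gave 5 list genes higher in fetal cells. With slide as a block 801 probes were higher in fetal cells, 1 member probe and 1 member gene (Dcn) in adult basal cells, and 4 list genes in fetal cells. The mean of a gene's probes added 1 member gene higher in fetal cells, Vcan. With 1 array left out, the calls ranged from 948 to 1949 probes (498 to 1028 higher in fetal, 429 to 921 in adult basal cells). Member probes then ranged from 1 to 2 in fetal and 0 to 2 in adult basal cells, member genes from 0 to 0 and 0 to 2, and list genes from 1 to 6 and 7 to 13. Each of those fits has 1 array fewer, and the counts differed by which array was left out. The cause of the changes was not tested for any setting. The replicate numbers did not pair the samples (correlations of deviations -0.032, 0.0933 and 0.0488). With the replicate block 1302 probes were called (694 and 608), 1 member probe and 1 member gene (Dcn) higher in adult basal cells, and 3 list genes higher in fetal cells.

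Small differences changed sign: with the mean of a gene's probes Agrn was -0.022 and Cd44 0.098, and with normexp Plin1 was 0.032. With 1 array left out, Sdc1 ranged from -0.156 to 0.083 (above 0 without fetal replicate 2 or adult basal replicate 1), Acan from -0.13 to 0.012 (above 0 without adult basal replicate 2), Kdr from -0.136 to 0.029 (above 0 without fetal replicate 2 or adult basal replicate 2) and Plin1 from -0.187 to 0.049 (above 0 without fetal replicate 2 or adult basal replicate 1).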

Other observations

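The genes whose pattern over the 6 arrays was nearest to that of Dcn, by Euclidean distance of log2 signal after each probe's mean was subtracted, were Mapt (distance 0.19), Krt15 (0.19), Mcub (0.25), Zcchc12 (0.34) and Hilpda (0.35). Mapt encodes the microtubule protein tau, Krt15 a keratin of basal layers in stratified epithelia, and Hilpda a lipid droplet protein. The fold changes of Mapt, Krt15, Zcchc12 and Hilpda were -3.78, -3.85, -3.75 and -3.77, as the choice by distance fixes.

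Among the other markers read beside the proteoglycans, contractile genes of basal cells were higher in adult basal cells. Myh11, the smooth muscle myosin heavy chain, read 5.72 ± 0.24 in fetal and 14.35 ± 0.28 in adult basal cells (SD, n = 3 each), a fold change of -8.63 (SE 0.184, Holm-adjusted p 6.95e-06 in limma). Cnn1, Tagln and Mylk, which belong to the same contractile apparatus, had fold changes of -6.01, -4.87 and -4.50, and Oxtr, the oxytocin receptor, of -3.96. Krt5 and Krt17, keratins of the basal layer, had fold changes of -3.90 and -3.08, and the other Krt5 probe of -4.48. Trp63, a transcription factor of basal cells, had a fold change of -0.08 and was not called by its brightest probe, whereas its other probe was (-3.06). Krt14, also of that layer, was not called (-1.20) and varied among adult arrays, at 15.25, 13.39 and 15.46. On the luminal side Kit, a receptor tyrosine kinase of luminal progenitors, Pgr, the progesterone receptor, and Epcam were higher in fetal cells, with fold changes of 4.003, 2.13 and 1.88. Epcam encodes the antigen gated brighter in the fetal sort. The other Pgr probe was not called (1.67, Holm-adjusted p 0.356 in limma). Krt19, a further luminal keratin, had a fold change of -1.22, the opposite direction, and was not called with Holm adjustment (adjusted p of 1 in limma, Benjamini-Hochberg p 0.00041). The fold changes of Krt8, Krt18, Gata3 and Cd14 were 0.44, 0.58, 0.15 and 0.14, and none was called. Esr1, the estrogen receptor, had a brightest probe that was not tested (4.74 in fetal and 5.80 in adult basal cells), and its 1 tested probe had a fold change of -3.58 (Holm-adjusted p 0.251 in limma). The calls of Epcam and Pgr were lost in 9 and 8 of 18 alternatives and that of Krt5 in 2.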
